A study of Mus musculus with 12 samples.

Results

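The pericentral Wnt target genes described here are Axin2, Lgr5, Tbx3, Rnf43, Znrf3, Rhbg, Oat, Slc1a2, Lect2 and Sp5. These 10 genes were taken by symbol, as known targets of Wnt signalling in the hepatocytes around the central vein of the liver lobule, out of 24296 genes with a symbol in the deposited table. Earlier results of these data were known when they and the lists below were chosen, so shares of all genes beside them are descriptive. All 10 were found, and all 10 had a mean of at least 0.5 FPKM (fragments per kilobase, scaled by library size) over the 12 livers, which 13158 genes reached. Liver RNA was sequenced from male C57/BL6N mice, from 4 groups of 3 livers. The model group received carbon tetrachloride (CCl4) in olive oil into the peritoneum for 8 weeks, 2 times a week. The same CCl4 was given to the other 2 groups, which received silibinin or the high dose of phloridzin from week 5. The control group is labelled WT, and what its mice were injected with is not given in the sources used here. The livers were taken at the end of the 8 weeks.

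Hepatocytes do not all express the same genes. Endothelial cells of the central vein release the ligands Wnt2 and Wnt9b and the R-spondin Rspo3, and in the hepatocytes next to them β-catenin then enters the nucleus and, with TCF factors, switches on pericentral genes. Among these are feedback regulators of the pathway itself, such as Axin2, Rnf43 and Znrf3. Others take up glutamate, or capture ammonia that escaped the urea cycle upstream. The same hepatocytes are rich in cytochrome P450 Cyp2e1, which converts CCl4 to a radical, and CCl4 is known to injure them most. The comparisons below ask how the RNA of these genes stood in livers after CCl4, and in livers that received a drug during the last weeks of CCl4.

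Promoter sequences of 300 bases, from 250 bases before the start of transcription to 50 after it, were available from RefSeq (GRCm38.p6) for 6 of the 10 genes, Axin2, Rnf43, Oat, Slc1a2, Lect2 and Sp5. No entry was available for Lgr5, Tbx3, Znrf3 and Rhbg. The windows were searched on both strands for the core of the TCF motif, spelled CTTTGAT or CTTTGAA or CTTTGTA or CTTTGTT. At least 1 of these 4 spellings was found in 16.9% of all 32851 promoter windows. It was found for 3 of the 6 genes, Slc1a2, Sp5 and Lect2, and not in the windows of Oat, Axin2 and Rnf43, which has 2. The promoters of Slc1a2 and Oat are printed because these genes had the lowest RNA after CCl4 relative to control livers, and those of Sp5 and Lect2 because they hold the motif while their RNA did not change that far. Capitals mark the motif on either strand, and each sequence runs 5′ to 3′ on the strand of its gene. The window of Slc1a2 is chr2:102706188-102706487 on the plus strand, with the motif beginning 207 bases before the start.
Slc1a2: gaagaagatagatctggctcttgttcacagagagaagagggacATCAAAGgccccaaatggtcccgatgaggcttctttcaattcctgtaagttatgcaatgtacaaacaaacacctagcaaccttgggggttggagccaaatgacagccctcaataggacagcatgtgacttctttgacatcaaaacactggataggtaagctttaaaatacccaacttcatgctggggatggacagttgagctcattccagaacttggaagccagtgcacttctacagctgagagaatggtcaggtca
The window of Oat is chr7:132576349-132576648 on the minus strand.
Oat: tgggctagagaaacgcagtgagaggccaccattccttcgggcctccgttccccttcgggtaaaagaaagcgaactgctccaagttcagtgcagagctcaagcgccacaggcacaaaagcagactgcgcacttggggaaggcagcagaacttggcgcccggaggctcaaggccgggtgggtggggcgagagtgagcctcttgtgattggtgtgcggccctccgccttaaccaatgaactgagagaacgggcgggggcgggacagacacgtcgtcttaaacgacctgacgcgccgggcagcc
The window of Sp5 is chr2:70474673-70474972 on the plus strand, with motifs beginning 222 and 104 bases before the start.
Sp5: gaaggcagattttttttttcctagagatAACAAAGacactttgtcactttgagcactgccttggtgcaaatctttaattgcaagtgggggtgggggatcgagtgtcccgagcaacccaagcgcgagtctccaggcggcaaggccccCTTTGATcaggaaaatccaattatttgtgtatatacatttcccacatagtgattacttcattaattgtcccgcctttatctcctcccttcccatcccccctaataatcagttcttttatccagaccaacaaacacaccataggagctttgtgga
The window of Lect2 is chr13:56548489-56548788 on the minus strand, with the motif beginning 32 bases before the start.
Lect2: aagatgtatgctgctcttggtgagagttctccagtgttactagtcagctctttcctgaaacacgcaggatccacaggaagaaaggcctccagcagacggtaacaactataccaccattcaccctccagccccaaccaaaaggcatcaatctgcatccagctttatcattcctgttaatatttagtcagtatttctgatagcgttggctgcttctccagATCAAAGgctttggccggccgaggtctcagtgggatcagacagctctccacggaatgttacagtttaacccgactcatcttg
A match is a stretch of letters and no measured binding site, and the absence of a match says only that these spellings are not in the window.

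Values of all Ensembl transcripts of a gene were summed in each liver, and sums were compared as log2(FPKM + 1) by limma in a fit of all genes and all 12 livers. A gene was called differentially expressed (DE) at a Benjamini-Hochberg adjusted p under 0.05, over all 13158 genes, with a fold change of more than 1 on the log2 scale in either direction. On this scale the change of a gene with low values is understated. The FPKM of genes as a whole stood higher in the model group than in the control group, with a median log2 fold change of 0.34 over all genes tested. Assembled transcripts without a gene symbol, which belong to no gene here, held 25.5% to 29.8% of all FPKM in the control livers and 19.6% to 20.96% in the model livers. After scaling by median ratios between livers the median over all genes was 0.01, a shift of the whole table against which changes are given below as a scaled value. The split of DE genes moved with it, from 1240 upregulated and 142 downregulated to 526 and 453.

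Between the model group and the control group, 2 of the 10 genes were DE, Oat and Slc1a2, and both fell. Of all genes tested, 10.5% were DE in this comparison and 1.08% were DE and lower. Oat encodes ornithine aminotransferase, the mitochondrial enzyme that turns ornithine into glutamate semialdehyde. Slc1a2 encodes a glutamate importer of the plasma membrane. In bulk liver RNA, fewer pericentral hepatocytes and less RNA in each of them cannot be told apart.

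Oat was at 545, 428.2 and 489 FPKM in the 3 control livers and at 12.6, 16.3 and 17.7 FPKM in the 3 model livers. The lowest control liver was thus far above the highest model liver, and the model mean was 3.19% of the control mean. For Oat this gave a log2 fold change of -4.89 (limma, standard error 0.44, adjusted p = 7.65e-05), and its scaled value was -5.32. Nearly all of this RNA, 99.7% of the gene's mean, was listed under a single transcript of 2152 bases. A NONCODE transcript listed on the same strand within the gene went the same way, at 8.81, 3.00 and 4.13 FPKM in the control livers and 0.528, 1.14 and 0.411 FPKM in the model livers.

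Slc1a2 was at 74.8, 40.5 and 34.8 FPKM in the control livers, and at 0.123, 0.00850 and 0.306 FPKM in the model livers. It was thus low after CCl4, and near the limit of the table in model replicates 1 and 2. Low values times transcript length are close to whole multiples of a step in each library, and Slc1a2 reached 10, 10 and 355 steps in the model livers against 59259.9, 20502.7 and 19438.8 in the control livers. The log2 fold change was -5.41 (limma, standard error 0.67, adjusted p = 0.000337), and its scaled value was -5.64. It was -7.79 with a pseudocount of 0.1 in place of 1, -9.37 by voom (adjusted p = 0.0235) and -4.71 on the most abundant transcript, and Slc1a2 was DE in every setting.

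Most Slc1a2 RNA of the control livers was listed under 2 coding transcripts with different starts. The shorter one, of 2127 bases, starts at 102706438 on chromosome 2, the start on which the promoter window printed above is placed. It stood at 27.7, 26.8 and 21.4 FPKM in the control livers and is listed at 0 in all 3 model livers. The longer one, of 11595 bases, starts upstream at 102658659 and went from 43.4, 11.2 and 11.3 FPKM to 0.00825, 0.0085 and 0.306 FPKM. RNA from both starts was thus low after CCl4, and how fragments were divided between the 2 transcripts was estimated by the authors' assembly.

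**Figure D1:**
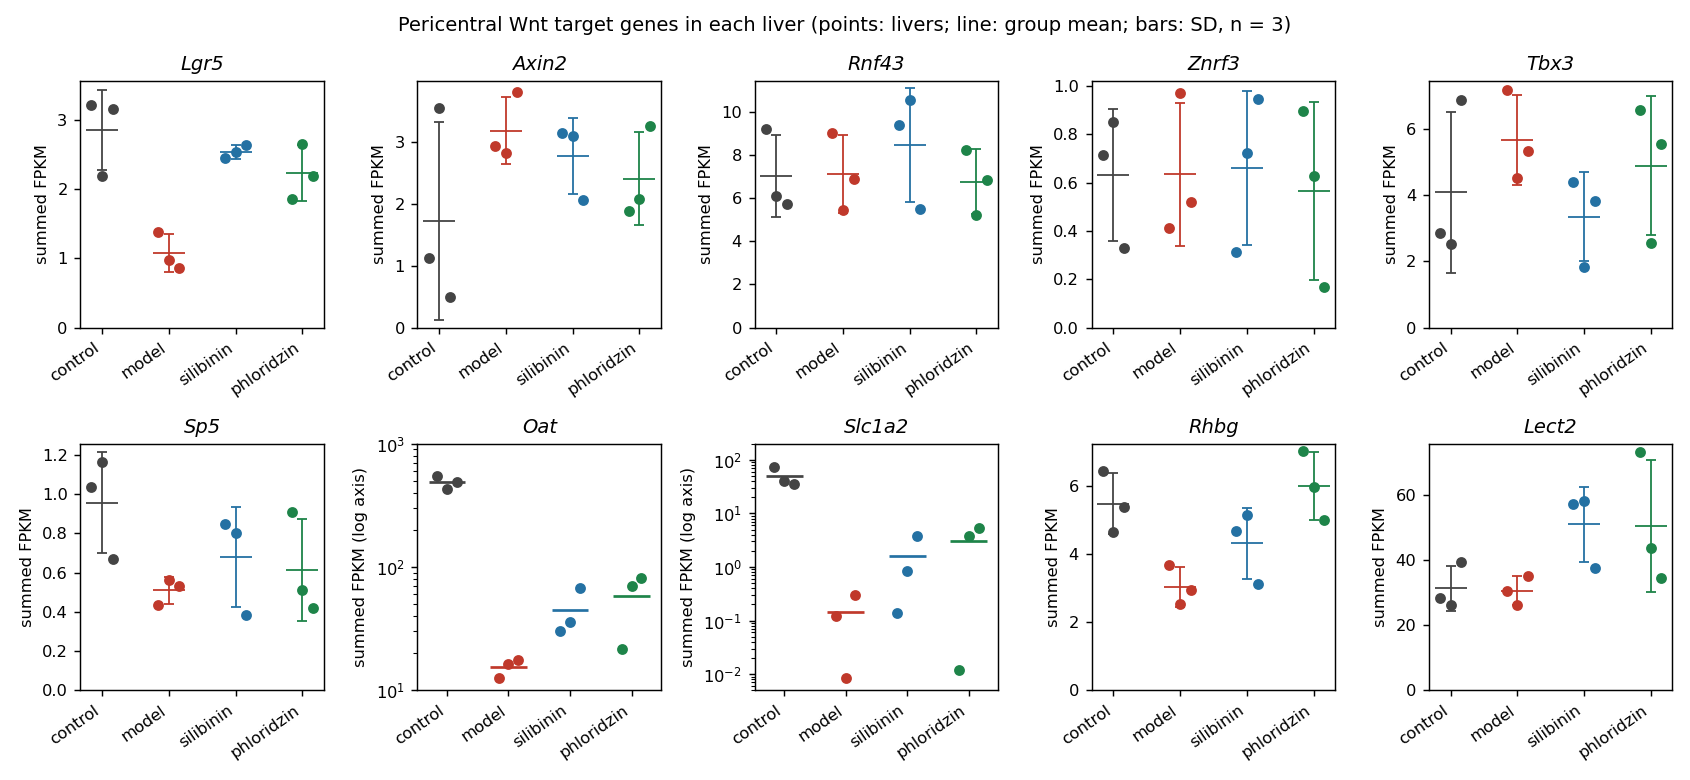
Summed FPKM of the 10 genes in each liver, by group. Points are livers, horizontal lines are group means and bars are SD (n = 3 livers). Oat and Slc1a2 are drawn on a log axis without bars, and for them every liver given CCl4 lies below every control liver, while every model liver is below all other livers for Lgr5, and Rnf43 and Znrf3 overlap among the groups.

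Lgr5 and Rhbg were lower in the model group with an adjusted p under 0.05 but without passing the fold change cutoff. With Oat and Slc1a2 this made 4 of 10 genes lower at that p alone, where 3.80% of all genes were. Lgr5 is a receptor for R-spondins that raises the response to Wnt. It was at 3.22, 2.19 and 3.16 FPKM in the control livers and at 1.39, 0.978 and 0.859 FPKM in the model livers, and the groups did not overlap. Its log2 fold change was -0.89 (limma, standard error 0.15, adjusted p = 0.00184). Rhbg encodes an ammonia transporter of the hepatocyte membrane. It was at 6.42, 4.64 and 5.38 FPKM in the control livers and at 3.67, 2.52 and 2.93 FPKM in the model livers, again without overlap. Its log2 fold change was -0.68 (limma, standard error 0.19, adjusted p = 0.0186). The adjusted p of Rhbg rose to 0.0672 without control replicate 1, 0.0664 without model replicate 2 and 0.0506 without model replicate 3.

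With values scaled by median ratios Lgr5 and Rhbg passed the fold change cutoff too, at -1.17 and -1.04. That gave 4 DE genes of the 10, all lower, where 3.46% of all genes were DE and lower on the scaled values. Lgr5 also passed at -1.34 with a pseudocount of 0.1, at -1.09 with one of 0.5, at -1.57 with voom and at -1.02 without control replicate 2. Without that liver 4 of the 10 genes were DE, as Axin2 (below) was DE too. The coding Lgr5 transcript of 4714 bases, 57.3% of the gene's mean, went from a mean of 1.60 to 0.472 FPKM.

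The transcription factor Sp5 was at 1.04, 1.16 and 0.669 FPKM in the control livers and 0.433, 0.563 and 0.533 FPKM in the model livers. With it, 5 of the 10 genes had every model liver below every control liver, where 6.92% of all genes did. Its log2 fold change of -0.37 did not pass the test (limma, standard error 0.16, adjusted p = 0.0978). On the scaled values it was -0.55 (limma, adjusted p = 0.0182), under the fold change cutoff. These levels are low, with 76 to 265 steps of the table behind each of the 6 values. Tbx3, a T-box transcription factor that Wnt switches on in hepatocytes, overlapped between the groups. It was at 2.86, 2.52 and 6.90 FPKM in the control livers and 7.18, 4.53 and 5.35 FPKM in the model livers (limma, adjusted p = 0.357).

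The 3 feedback regulators did not pass the test. Axin2 is the scaffold of the complex that degrades β-catenin and a widely used readout of Wnt activity. It was at 1.12, 3.54 and 0.497 FPKM in the control livers and at 2.93, 2.81 and 3.80 FPKM in the model livers. Control replicate 2 stood among the model livers while the other 2 control livers were below them all. Axin2 had a log2 fold change of 0.77 (95% interval 0.02 to 1.53, limma, adjusted p = 0.102), opposite in sign to that of Lgr5, and its scaled value was 0.48. Without control replicate 2 Axin2 would be DE, with a log2 fold change of 1.22 (limma, adjusted p = 0.00637). Without control replicate 3 it was 0.42. Over the 23 other settings its log2 fold change was between 0.42 and 2.18, and its adjusted p between 0.00637 and 0.342.

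Rnf43 and Znrf3 are membrane ubiquitin ligases that remove Wnt receptors from the cell surface. Rnf43 was at 9.22, 6.12 and 5.74 FPKM in the control livers and 9.04, 5.47 and 6.88 FPKM in the model livers, with a log2 fold change of 0.02 (95% interval -0.56 to 0.60). Znrf3 had the lowest control mean of the 10 genes, at 0.715, 0.852 and 0.328 FPKM in the control livers and 0.414, 0.971 and 0.521 FPKM in the model livers. Its log2 fold change was 0.00 (95% interval -0.49 to 0.49). The sign of both turned on the scaled values, to -0.37 and -0.16. Lect2 encodes a secreted protein of hepatocytes. It was at 28.2, 26.3 and 39.3 FPKM in the control livers and 30.6, 26.2 and 35.1 FPKM in the model livers, with a log2 fold change of -0.02 (95% interval -0.63 to 0.60) and a scaled value of -0.45. Over the 10 genes the median log2 fold change was -0.19, against 0.34 over all genes tested.

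**Figure D2:**
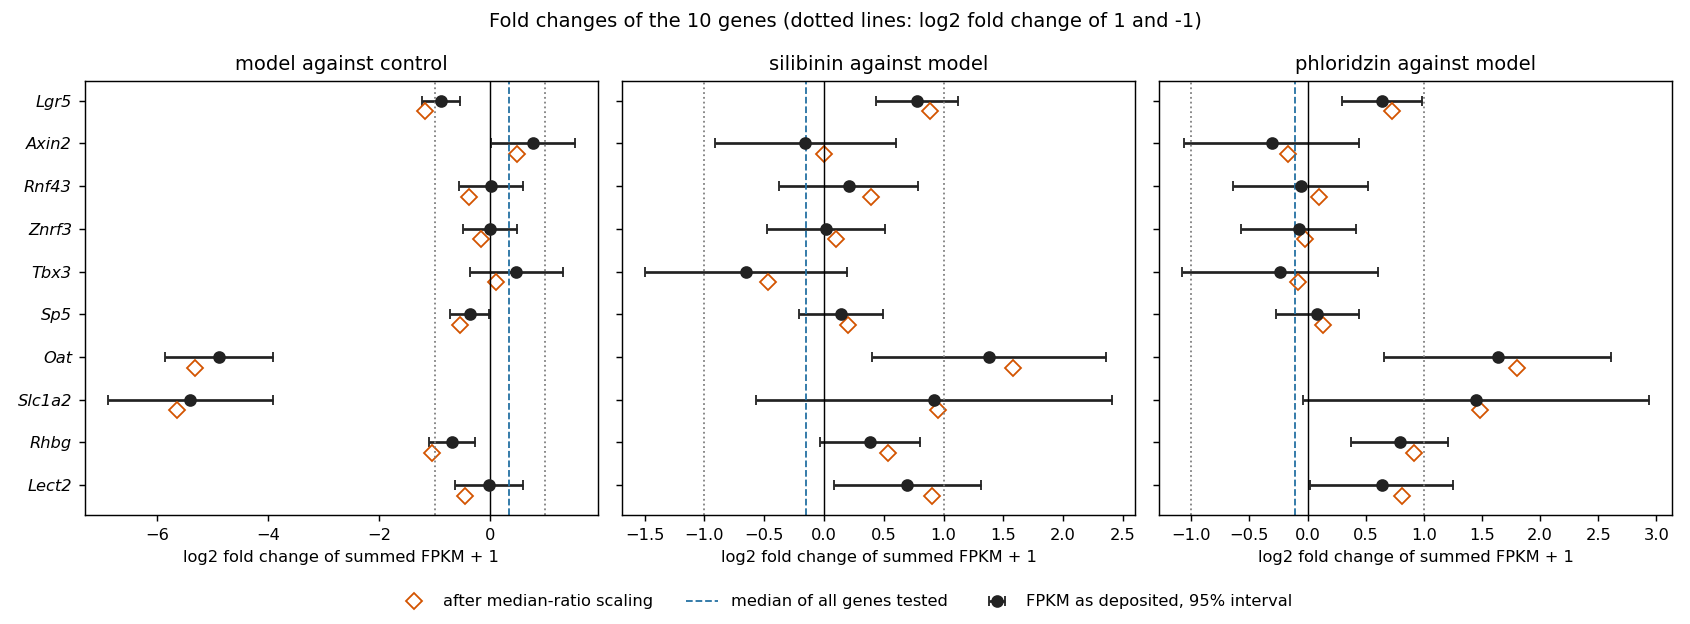
Log2 fold changes of the 10 genes in 3 comparisons, on summed FPKM + 1, with 95% intervals from limma (black) and the value after median-ratio scaling (open diamonds). The dashed line is the median of all genes tested, 0.34, -0.15 and -0.11 from left to right, and dotted lines mark the fold change cutoff. Oat and Slc1a2 lie near -5 in the left panel, and Oat, Slc1a2, Lgr5, Rhbg and Lect2 lie to the right of 0 in the other 2 panels.

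Between silibinin and model livers, 0 of the 10 genes were DE by limma, where 3.998% of all genes were. At an unadjusted p under 0.05 there were 3 of 10, and 3844 of all 13158 genes. Lgr5 was higher at an adjusted p under 0.05 alone, as were 2.62% of all genes. It was at 2.44, 2.54 and 2.64 FPKM in the silibinin livers, all above the model livers and within the range of the control livers. Its log2 fold change against the model group was 0.78 (limma, standard error 0.15, adjusted p = 0.00854) and against the control group -0.11 (95% interval -0.45 to 0.23). It passed the fold change cutoff with a pseudocount of 0.1, at 1.19, and with voom of limma on fragments recovered from the table, at 1.38.

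Oat was at 30.2, 35.5 and 67.5 FPKM in the silibinin livers, above every model liver and far below every control liver. Its log2 fold change against the model group was 1.38 (95% interval 0.40 to 2.36, limma, adjusted p = 0.063). It was DE by limma when phloridzin replicate 1 was left out of the shared fit (adjusted p = 0.00816), with only the 2 groups in the fit (adjusted p = 0.0381), and with the replicate number as a block (adjusted p = 0.043). The replicate number is only the order of listing within a group, so that block stands for no known batch. Over all settings the adjusted p of Oat ran from 0.00816 to 0.203. Lect2 had no overlap with the model group either, at 57.1, 58.0 and 37.6 FPKM and a log2 fold change of 0.70 (limma, adjusted p = 0.122). On the scaled values that of Lect2 was 0.91 (limma, adjusted p = 0.0382), under the fold change cutoff. Lgr5, Oat and Lect2 made 3 of 10 genes with every silibinin liver above every model liver, where 8.91% of all genes did. For Tbx3, at 4.40, 1.83 and 3.84 FPKM, every silibinin liver was below every model liver, without passing the test (limma, adjusted p = 0.293). The share of all genes separated in this direction was not counted, and 8655 of 13158 genes had a log2 fold change below 0. The scaled value of Tbx3 was -0.47 (limma, adjusted p = 0.505). Slc1a2 was at 0.138, 0.830 and 3.82 FPKM and overlapped with the model livers, with a log2 fold change of 0.92 (95% interval -0.57 to 2.41). Without silibinin replicate 3 it was 0.34, without silibinin replicate 1 it was 1.38, and over all settings it reached 3.70, by voom, never DE.

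Between phloridzin and model livers, 1 of the 10 genes was DE, and it was Oat. Of all genes, 3.52% were DE in this comparison and 0.600% were DE and higher. Oat was at 21.7, 69.9 and 81.2 FPKM in the phloridzin livers. Phloridzin replicate 1 was nearest to the model livers, and the other 2 were above all silibinin livers. Against the model group this gave 1.64 on the log2 scale (limma, standard error 0.44, adjusted p = 0.0357). This call was lost in 9 of the 23 other settings, among them every omission of a model liver (adjusted p 0.0651 to 0.107), the omission of phloridzin replicate 2 or 3 (0.126 and 0.117) or of silibinin replicate 2 (0.05003), and the fit of only the 2 groups (0.111). Over all settings the log2 fold change was between 1.29 and 2.22, and the adjusted p between 0.00159 and 0.126.

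Lgr5 and Rhbg were higher than in the model group at an adjusted p under 0.05 alone, which with Oat made 3 of 10 genes, where 2.50% of all genes were. The same 3 genes had every phloridzin liver above every model liver, as did 8.21% of all genes. Lgr5 was at 1.85, 2.66 and 2.19 FPKM, with a log2 fold change of 0.64 (limma, standard error 0.15, adjusted p = 0.0224). Rhbg was at 7.01, 5.96 and 5.01 FPKM, with 1 liver above the highest control liver and the others within the control range, and had a log2 fold change of 0.79 (limma, standard error 0.19, adjusted p = 0.0219). For Lgr5 the adjusted p was over 0.05 without model replicate 2 (0.0738), model replicate 3 (0.0734), phloridzin replicate 2 (0.0876) or phloridzin replicate 3 (0.0609). For Rhbg it was over 0.05 without model replicate 2 (0.0806), model replicate 3 (0.0580), phloridzin replicate 1 (0.0508) or phloridzin replicate 2 (0.0674). In the silibinin group Rhbg was at 4.67, 5.14 and 3.13 FPKM and overlapped with the model group.

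Slc1a2 was at 0.0118, 3.72 and 5.32 FPKM in the phloridzin livers. Replicate 1, with 14 steps of the table, was close to the lowest model liver, and the other 2 were above every model liver. The log2 fold change of 1.45 did not pass the test (95% interval -0.04 to 2.94, limma, adjusted p = 0.19). Without phloridzin replicate 3 it was 0.94. Without phloridzin replicate 1 it was 2.26 (limma, adjusted p = 0.0197), Slc1a2 was then DE beside Oat, and 638 of all genes were DE in place of 463. Phloridzin replicate 1 also stood apart over the whole table, with a mean correlation of 0.920 with its own group, the lowest of the 12 livers. The shorter transcript, which starts inside the printed promoter window, was at 0 in silibinin replicate 1 and phloridzin replicate 1 as in the model livers. It was at 0.428 and 1.55 FPKM in the other silibinin livers and at 2.06 and 2.18 FPKM in the other phloridzin livers.

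The 2 drugs were compared directly within the same fit, in which they share the model and control livers. None of the 10 genes was DE between phloridzin and silibinin by limma, where 0.0228% of all genes were, 3 of 13158. At an unadjusted p under 0.05 there were 0 of the 10 and 494 of all genes. For Oat the difference of phloridzin from silibinin was 0.26 on the log2 scale (95% interval -0.72 to 1.23), and for Slc1a2 0.53 (95% interval -0.96 to 2.02). With 1 of the 6 drug-treated livers left out, the difference ran from -0.09 to 0.84 for Oat and from 0.02 to 1.34 for Slc1a2, both lowest without phloridzin replicate 3 and highest without phloridzin replicate 1. The intervals leave room for a difference of more than a log2 fold change of 1 in favour of phloridzin.

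Against the control group, Oat and Slc1a2 remained DE and lower in both drug groups. Of all genes 0.243% were DE and lower in silibinin against control, and 0.289% in phloridzin against control. Oat had a log2 fold change of -3.51 with silibinin (limma, adjusted p = 0.00412) and -3.25 with phloridzin (limma, adjusted p = 0.00529). The mean level of Oat was 9.10% of the control mean after silibinin and 11.8% after phloridzin. For Slc1a2 the log2 fold change was -4.48 with silibinin (limma, adjusted p = 0.00704) and -3.96 with phloridzin (limma, adjusted p = 0.00899), and the mean level was 3.19% and 6.03% of the control mean. The call of Slc1a2 was lost by voom with silibinin (adjusted p = 0.0627) and with phloridzin (adjusted p = 0.0537), and with only the 2 groups fitted for phloridzin (adjusted p = 0.0528). The other 8 genes were not DE against the control group in either drug group. For Lgr5 and Rhbg the log2 fold change against control was -0.25 and 0.11 with phloridzin and -0.11 and -0.30 with silibinin.

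Ordered by mean FPKM in the control group, the genes ran from Oat and Slc1a2 through Lect2, Rnf43, Rhbg, Tbx3, Lgr5, Axin2 and Sp5 to Znrf3. In the model group Lect2 came first at 30.6 ± 4.42 FPKM (SD, n = 3 livers), then Oat at 15.6 ± 2.64 FPKM (SD, n = 3 livers), and Slc1a2 last at 0.146 ± 0.150 FPKM (SD, n = 3 livers).

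Oat and Slc1a2 had a Pearson r of 0.99 with each other over the 12 livers. Among genes outside the 10 with a mean of at least 1 FPKM, those most like Oat were Lhpp, Glul and Enho, with r of 0.98, 0.96 and 0.96 on log2(FPKM + 1). For Slc1a2 they were Chchd10, Enho and Glul, with r of 0.95, 0.95 and 0.94. For Lgr5 they were Proz, Ttpa and Haao, with r of 0.96, 0.94 and 0.92, and for Axin2 Ubap2, Atrn and Tpra1, with r of 0.91, 0.90 and 0.86. These values describe 12 livers that fall into 4 groups, so a common difference between control livers and the rest is enough for a high r. Glul, which encodes glutamine synthetase, the enzyme that fixes ammonia in the last hepatocytes before the central vein, was at 451, 299.5 and 383 FPKM in the control livers and 31.1, 34.1 and 36.4 FPKM in the model livers. It was at 53.7, 73.4 and 57.1 FPKM with silibinin and 52.9, 78.0 and 55.5 FPKM with phloridzin, above the model livers in all 6.

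Glul belongs to a list of 23 other pericentral hepatocyte genes. In the model group 7 of the 23 were DE and lower, where 1.08% of all genes were, and 0 were DE and higher, with a list median of -0.76 against 0.34 over all genes. Lhpp fell by 3.84 on the log2 scale, Cyp2c37 by 3.48, Glul by 3.43 and Cyp2e1, the enzyme that activates CCl4, by 2.35. Cyp2e1 was at 3679, 1373 and 3386 FPKM in the control livers and 475, 489 and 548 FPKM in the model livers. Cyp1a2, another pericentral cytochrome P450, was at 162, 200.2 and 171 FPKM against 166, 201 and 207 FPKM and was not DE. On the scaled values 12 of the 23 were DE and lower, with a list median of -1.20, where 3.46% of all genes were DE and lower.

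With silibinin 1 of the 23 genes was DE and higher than in the model group, where 0.745% of all genes were, and with phloridzin 2 were, where 0.600% of all genes were. Lhpp, a histidine phosphatase, rose by 1.35 with silibinin and by 1.56 with phloridzin on the log2 scale. Cyp7a1, the rate-limiting enzyme of bile acid synthesis, rose by 2.60 with phloridzin. The list medians were 0.43 and 0.38, against 0.55 and 0.56 for the periportal genes below and -0.15 and -0.11 over all genes. After scaling, 5 of the 23 were DE and higher with silibinin, where 1.44% of all genes were, and 3 with phloridzin, where 1.07% were. Cyp2e1 was at 1554, 684 and 1087 FPKM with silibinin, all above the model livers (limma, adjusted p = 0.0969), and at 480.0, 357 and 488 FPKM with phloridzin, within or below the model livers.

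**Figure D3:**
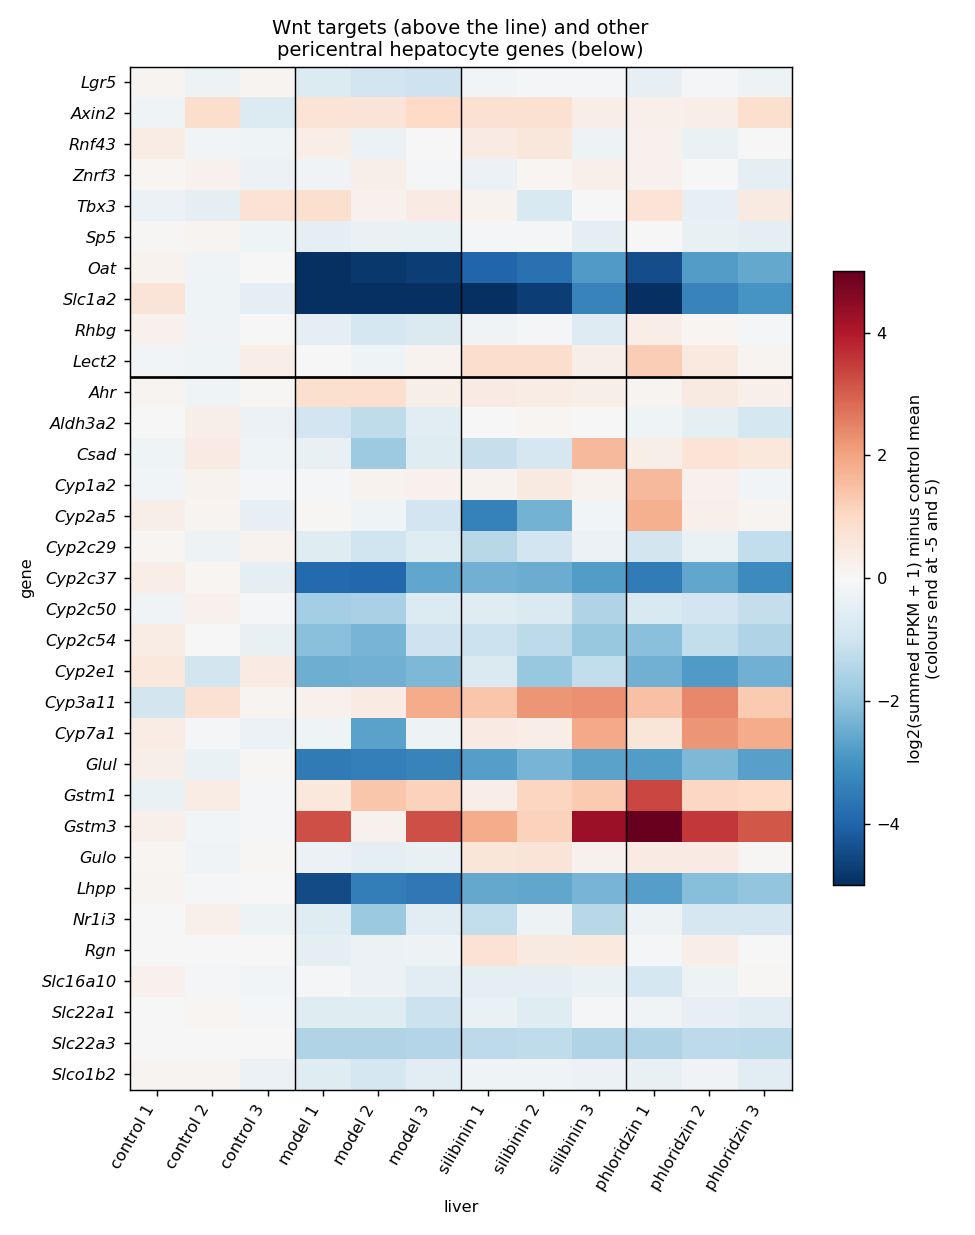
Level of each of the 10 Wnt targets (above the line) and 23 other pericentral hepatocyte genes (below) in each of the 12 livers, as log2(summed FPKM + 1) minus the mean of the 3 control livers. Blue is lower and red is higher than control, and colours end at -5 and 5. Oat, Slc1a2, Glul, Lhpp and Cyp2c37 are blue in all 9 livers given CCl4, whereas Cyp1a2, Rnf43 and Znrf3 stay near white in most.

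Genes of the periportal end of the lobule served for comparison. Of 24 periportal hepatocyte genes, 2 were DE and lower in the model group and 0 were DE and higher, with a list median of -0.38. Of all genes 1.08% were DE and lower and 9.42% were DE and higher. After scaling, 4 were DE and lower, with a list median of -0.81, where 3.46% of all genes were DE and lower. The 2 were Hal, which starts the breakdown of histidine and fell by 1.50 on the log2 scale, and Ftcd, which acts later in the same route and fell by 1.08. The urea cycle enzymes Ass1 and Cps1 had log2 fold changes of -0.18 and -0.37 and were not DE. Of 11 hepatocyte markers none was DE by limma in the model group (1 had an adjusted p under 0.05), with a list median of 0.03. On the scaled values 2 were DE and lower, beside the same 3.46% of all genes, with a list median of -0.41. Alb was at 10970.5, 15620.1 and 11509 FPKM in control livers and 13183, 20585 and 23528 FPKM in model livers. With silibinin 3 of the 24 periportal genes were DE and higher than in the model group, Hal at 1.51, Aldh1b1 at 1.45 and Gldc at 1.04. With phloridzin 3 were, Etnppl at 2.07, Aldh1b1 at 1.26 and Ftcd at 1.18. Of all genes 0.745% were DE and higher with silibinin and 0.600% with phloridzin. The log2 fold change was above 0 for 20 of the 24 in each comparison, and over all 13158 genes for 4500 with silibinin and 5119 with phloridzin. After scaling, 5 of the 24 were DE and higher in each, beside the same 1.44% and 1.07% of all genes.

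The ligands of the pathway stood as follows. Of 24 Wnt ligands and R-spondins, 7 passed the filter on low values, and 1 was DE in the model group, where 10.5% of all genes were. It was Wnt4, which rose by 1.24 on the log2 scale (limma, adjusted p = 0.000151). It was at 0.249, 0.169 and 0.296 FPKM in the control livers and 1.92, 1.80 and 2.02 FPKM in the model livers. The central vein ligand Wnt2 was at 2.20, 1.93 and 1.63 FPKM in the control livers and 3.56, 2.58 and 3.42 FPKM in the model livers, with no overlap but without passing the test (log2 fold change 0.51, limma, adjusted p = 0.177). Wnt9b was at 0.810, 0.333 and 0.291 FPKM against 1.37, 0.868 and 0.946 FPKM (log2 fold change 0.49, limma, adjusted p = 0.0812). Rspo3 was at 1.22, 1.53 and 2.11 FPKM against 2.77, 1.90 and 3.05 FPKM and overlapped. On the scaled values Wnt2, Wnt9b and Rspo3 had log2 fold changes of 0.20, 0.31 and 0.15. Wnt5b was lower, at 3.42, 4.05 and 2.73 FPKM against 1.58, 1.34 and 1.57 FPKM (log2 fold change -0.81, limma, adjusted p = 0.00143), and on the scaled values it was DE at -1.11.

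Of 19 Wnt receptors and genes of ligand secretion, 13 were tested and none was DE in the model group by limma. At an adjusted p under 0.05 alone 2 were higher and 2 lower, where 31.1% of all genes were higher and 3.80% lower. The list median was -0.02. After scaling, 2 were DE and lower, with a list median of -0.37, where 3.46% of all genes were DE and lower. Lgr4, the R-spondin receptor of most hepatocytes, was at 28.8, 25.9 and 23.4 FPKM in the control livers and 15.2, 13.3 and 13.7 FPKM in the model livers (log2 fold change -0.84, limma, adjusted p = 0.00121). It was at 26.8, 24.4 and 30.7 FPKM with silibinin and 22.6, 27.2 and 28.3 FPKM with phloridzin. Both were higher than the model group by 0.91 and 0.84 on the log2 scale (limma, adjusted p = 0.00185 and 0.00310), under the fold change cutoff. On the scaled values Lgr4 was DE in all 3 comparisons, at -1.27, 1.10 and 1.01.

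Of 21 Wnt inhibitors 9 were tested, with 2 DE and higher and 1 DE and lower in the model group, where 9.42% and 1.08% of all genes were. After scaling, 2 were DE and higher and 2 DE and lower, beside 4.02% and 3.46% of all genes. Dkk3 rose by 1.47 and Frzb by 1.46 on the log2 scale, both secreted proteins. Notum, an enzyme that inactivates Wnt ligands and is itself a target of the pathway, fell by 1.24 (limma, adjusted p = 0.0473). Notum was at 10.05, 7.59 and 7.61 FPKM in the control livers and 7.75, 2.53 and 0.996 FPKM in the model livers, so that model replicate 1 lay within the control range. Nkd1, another feedback inhibitor, was at 0.994, 0.836 and 0.988 FPKM against 1.45, 1.18 and 1.20 FPKM and was not DE (limma, adjusted p = 0.243). Of 30 genes of the β-catenin destruction complex and its effectors 27 were tested and 1 was DE, Csnk1e at 1.00, a call that was lost on the scaled values at 0.65. The list median of 0.36 lay near that of all genes. Ctnnb1, which encodes β-catenin, had a log2 fold change of 0.18 and Tcf7l2, the TCF factor of hepatocytes, of 0.24, and neither was DE.

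Of 12 Wnt target genes known from other tissues 8 were tested and 4 were DE and higher in the model group, with a list median of 0.96. Of all genes 9.42% were DE and higher. After scaling, 3 were DE and higher, with a list median of 0.66, where 4.02% of all genes were DE and higher. Ccnd1 rose by 3.18, Myc by 2.52, Cd44 by 1.88 and Sox4 by 1.14 on the log2 scale, the last not DE on the scaled values at 0.98. Ccnd1 encodes cyclin D1 and Myc a growth regulator, and both also answer to signals other than Wnt. Myc was at 0.940, 0.450 and 0.959 FPKM in the control livers and 8.93, 9.90 and 8.54 FPKM in the model livers. With silibinin Myc fell by 1.94 and Ccnd1 by 1.44 from the model level, and with phloridzin by 1.81 and 1.34.

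**Figure D4:**
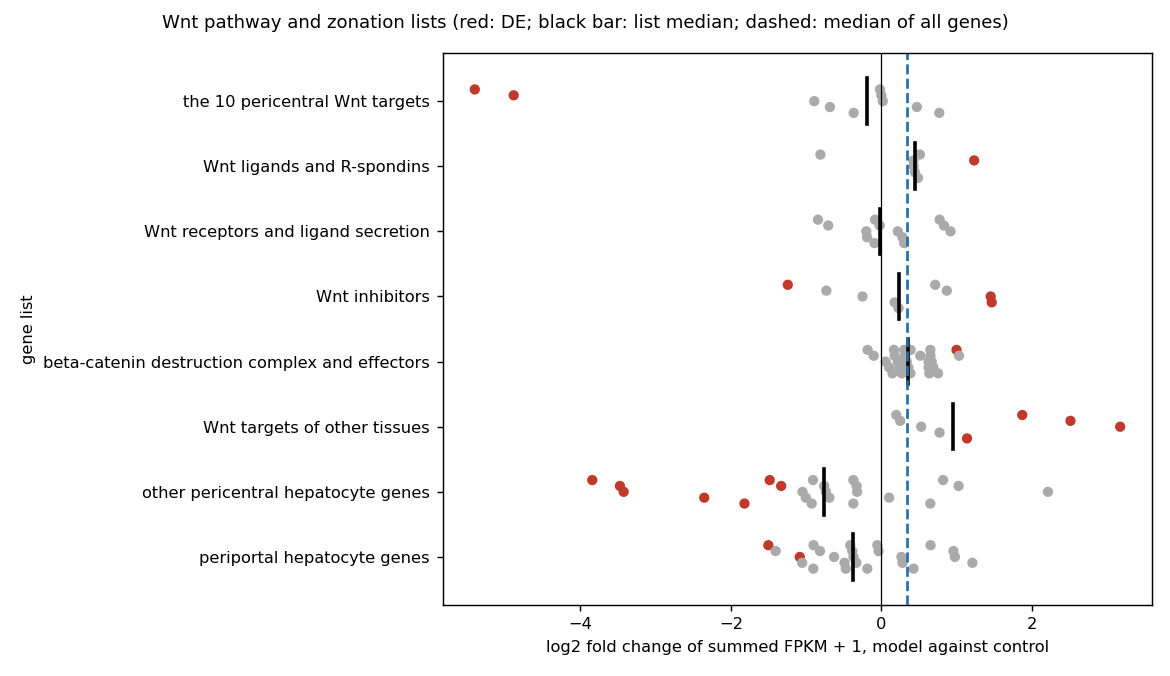
Log2 fold change of model against control, on summed FPKM + 1, for each tested gene of 8 lists. Each point is a gene, red points are DE, black bars are list medians and the dashed line is the median of all genes tested, 0.34. The 2 red points of the pericentral Wnt targets are Slc1a2 at -5.41 and Oat at -4.89, and the red points of the Wnt targets of other tissues lie above 1.

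Markers of other liver cells were counted in the same way, beside the 9.42% of all genes that were DE and higher. Of 13 stellate cell and fibroblast markers, 5 were DE and higher, led by Col1a1, which rose by 4.35 on the log2 scale. The summed level of this list was 112, 104 and 117 FPKM in the control livers and 292, 298 and 337 FPKM in the model livers, with Dcn as its most abundant gene. Of 15 macrophage markers, 4 were DE and higher, led by Gpnmb at 4.73, and the summed level was 204, 337 and 297 FPKM against 508, 812 and 695 FPKM, with Lyz2 the most abundant. Of 15 endothelial markers, 1 was DE and higher, Thbd at 1.69, and the summed level was 135, 126 and 145 FPKM against 145, 170.5 and 154 FPKM. Cholangiocyte, lymphocyte and neutrophil markers had 1 DE gene each, Spp1 at 1.94, Ptprc at 1.56 and Retnlg at 1.20, of 4, 8 and 4 tested, and the call of Retnlg was lost on the scaled values at 0.84. No marker on these lists was at 0 in all 12 livers. RNA from these cells takes part in the total to which every FPKM value is scaled, and its part in the levels of the 10 genes was not tested.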

How the data were processed

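Total RNA of 12 mouse livers was sequenced, and the authors deposited FPKM values for 169430 transcripts and each liver. The submitters' processing notes name HISAT2 2.1.0, StringTie 1.3.3b, FastQC 0.11.5, DESeq 1.28.0 and build mm10. Of these transcripts 82136 are Ensembl transcripts with a gene symbol. Their FPKM were summed per symbol and liver, and 68303 NONCODE and 18991 assembled transcripts were left out of the sums. Genes with a mean of at least 0.5 FPKM were compared as log2(FPKM + 1) by limma 3.58.1 (trend in the variance, R 4.3.3), with 4 groups in 1 fit, 6 contrasts, two-sided p-values and Benjamini-Hochberg adjustment. The fit was tested on simulated data. Low values times length are close to whole multiples of a step per library (within 0.1 for 98.9% to 99.3% of them), which gives relative depth only: the smallest step was 9.02 and the coarsest 12.0, in model replicate 1. Whether a step is a fragment is not settled, and voom, as an alternative, took 4 steps as a fragment. The members and lists were chosen with earlier results of these data known. Besides the 10 genes, the text names up to 4 DE genes per list and comparison and others chosen by name.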

Additional observations from a re-analysis of the deposited data

How the results depend on the processing

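The counts of DE genes and 30 log2 fold changes of the 10 genes were recomputed under 11 other settings and with each of the 12 livers left out in turn. Genes of the other lists were recomputed with median-ratio scaling only. Of the recomputed log2 fold changes, 640 kept their sign and whether the gene was DE, whatever their size, 20 became DE, 12 were no longer DE and 15 had the other sign.

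Model against control: 2 of the 10 genes were DE. The count was 3 at pseudocounts of 0.1 and 0.5 and by voom, 4 with median-ratio scaling, 4 without a fold change cutoff, and 2 to 4 with a liver left out. Of all genes 1382 were DE, with 2596 at a pseudocount of 0.1, 2563 by voom and 4594 without a fold change cutoff. The log2 fold change of Rnf43, 0.02, was -0.37 with scaling, -0.15 on protein-coding transcripts, -0.43 on the most abundant transcript, and -0.14 to 0.21 with a liver left out. That of Znrf3, 0.00, was -0.16 with scaling, -0.32 by voom and -0.14 to 0.10 with a liver left out, and that of Lect2, -0.02, was -0.45 with scaling and -0.13 to 0.15 with a liver left out.

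Silibinin against model: 0 of the 10 genes were DE by limma. The count was 1 at a pseudocount of 0.1, 1 with only the 2 groups in the fit, 1 with the replicate block, 1 by voom, 1 without a fold change cutoff, and 0 to 1 with a liver left out. Of all genes 526 were DE, with 920 by voom and 1849 without a cutoff.

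Phloridzin against model: 1 of the 10 genes was DE. The count was 0 without a filter, 2 at a pseudocount of 0.1, 0 with only the 2 groups, 0 on the most abundant transcript, 2 by voom, 3 without a fold change cutoff, and 0 to 2 with a liver left out. Of all genes 463 were DE, with 702 at a pseudocount of 0.1, 812 by voom and 1691 without a cutoff.

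Phloridzin against silibinin: 3 genes were DE, with 0 when only the 2 groups were fitted, 5 on the most abundant transcript, and 1 to 6 with a liver left out. The difference for Oat was -0.089 to 0.84 with a liver left out, and that for Slc1a2 was 0.02 to 1.34 with a liver left out and -0.24 by voom.

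Silibinin against control: 2 of the 10 genes were DE, and 1 by voom, without Slc1a2. Of all genes 261 were DE, with 828 and 456 at pseudocounts of 0.1 and 0.5, 117 on the most abundant transcript, 582 by voom, 661 without a cutoff and 101 to 400 with a liver left out.

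Phloridzin against control: 2 of the 10 genes were DE, with 1 when only the 2 groups were fitted and 1 by voom, both without Slc1a2. Of all genes 398 were DE, with 1103 and 710 at pseudocounts of 0.1 and 0.5, 143 with only the 2 groups, 249 with scaling, 190 on the most abundant transcript, 747 by voom, 1051 without a cutoff and 214 to 635 with a liver left out. The log2 fold change of Rhbg, 0.11, was -0.12 with scaling.

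Replicate numbers follow the order in which the samples of a group are listed, and the labels give no pairing of livers across groups. Residuals of livers with the same number had a median correlation of 0.0039, against -0.0059 for other pairs. As the numbers are a listing order, this cannot tell whether livers were paired in another way. Znrf3 and Sp5 have no value under a filter at a mean of 1, nor Znrf3 on the most abundant transcript.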

Other observations

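Within the sums of some of the 10 genes, transcripts of the same gene took unequal shares in different livers. The Axin2 transcript of 4260 bases, 47.2% of the gene's mean, was at 0.502 FPKM in the control group, 1.87 in the model group, 1.75 with silibinin and 0.637 with phloridzin. A shorter Axin2 transcript of 826 bases went from 0.585 FPKM in the control group to 0.0514 in the model group, with 1.69 in control replicate 2 alone. For Tbx3, the transcript of 4982 bases was at 1.76, 3.61, 0.621 and 2.60 FPKM in the control, model, silibinin and phloridzin groups, and the transcript of 4856 bases at 1.00, 0.395, 1.45 and 0.936 FPKM. Livers of the same group differed widely for the transcript of 4982 bases. It was at 0.0992, 0.0148 and 5.16 FPKM in the control livers and 5.88, 2.70 and 2.24 FPKM in the model livers. With silibinin it was at 1.57, 0.0616 and 0.228 FPKM, and with phloridzin at 3.84, 0.0230 and 3.94 FPKM. The splits are estimates of the authors' assembly for transcripts that share most of their sequence.

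At the Znrf3 locus, 6 NONCODE transcripts on the same strand were listed at a summed 2.33 to 6.62 FPKM per liver, above the level of Znrf3 itself in all 12 livers. They were left out of its sum, and their values were 4.65, 2.53 and 3.45 FPKM in the control livers and 6.62, 4.20 and 4.30 FPKM in the model livers.

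The livers given CCl4 did not fall into the same order for each pericentral gene. Phloridzin replicate 1 had the lowest Oat (21.7 FPKM) and Slc1a2 (0.0118 FPKM) of the 6 drug-treated livers. It was also the lowest of these 6 for Glul, Lhpp, Cyp2c37 and Slc22a3, though not for Cyp2e1. At the same time this liver had the highest Gstm1 (2448 FPKM), Gstm3 (564 FPKM) and Cyp1a2 (551 FPKM) of all 12 livers. The other 11 livers lay between 190 and 627 FPKM for Gstm1 and between 162 and 241 FPKM for Cyp1a2. Lect2 was also highest in that liver, at 73.3 FPKM, and Rhbg at 7.01 FPKM.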
